A study of Homo sapiens with 4 samples.

Results

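The genes described are the 255 protein-coding genes of the count table named ZNF with a number that lie on an autosome other than chromosome 19, out of 19901 genes in all. They were chosen by symbol and position alone, and they sit on 19 chromosomes, with 35 on chromosome 7 and 30 on chromosome 16. TT-Seq, in which cells take up the nucleoside 4-thiouridine (4sU) for some minutes so that newly made transcripts can be pulled out, was run in HCT116 cells, a colon cancer cell line. All 4 libraries came from the line labeled KAP1_dTAG_CloneD5, in which both conditions carry KAP1 fused to a degron, so that every value rests on 1 clone. Cells received DMSO (2 libraries) or dTAG-13 (hereafter dTAG, 500 nM, 2 libraries) for 8 h and then 500 μM 4sU for 10 min. No untagged cells treated with dTAG are part of these libraries, so KAP1 loss and other effects of the compound cannot be told apart. The sources describe biological replicates without saying whether they were grown on separate days.

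Most ZNF genes encode C2H2 zinc finger proteins, in which short fingers folded around a zinc ion can read DNA sequence. The members were chosen by name, and 48 of them had only 0 to 3 finger patterns. Many ZNF proteins carry a KRAB box at the N-terminus, the part that binds KAP1 (TRIM28). KAP1 in turn brings the H3K9 methyltransferase SETDB1 and HP1 proteins to chromatin. KAP1 and H3K9me3 are also known to lie over the 3′ ends of KRAB zinc finger genes themselves, with chromosome 19 holding the densest groups of them. The question asked here is how transcription of the members elsewhere in the genome compared between cells with and without dTAG.

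A profile search of the encoded proteins found a KRAB box in 114 of the 253 members with a protein and a SCAN domain, a dimerization module, in 19. RefSeq promoter windows (250 bases before to 50 bases after the start) matched 207 of the 255 members. Their median GC content was 62.3% with 24 CG dinucleotides, beside 63.0% and 22 over the 15297 genes of the table with a window. In members with a KRAB box the median was 59.7% with 20 CG dinucleotides, and in those without one 66.8% with 26. For 5 of the members that passed the threshold described below, 100 bases are shown (GRCh38.p14), because these genes range widely in whole-gene GC content. The bases lie before both the RefSeq start and the start in the count table. Fold changes are set against whole-gene GC content below, which differs from that of these stretches. ZNF518B had 42.1% over the gene and 77.0% in its stretch, and ZNF219 had 55.5% and 45.0%. Capitals mark CG dinucleotides.
ZNF330, chr4:141220786-141220885, plus strand: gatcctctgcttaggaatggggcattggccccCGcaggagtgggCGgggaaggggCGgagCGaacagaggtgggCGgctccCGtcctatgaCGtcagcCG
ZNF697, chr1:119648267-119648366, minus strand: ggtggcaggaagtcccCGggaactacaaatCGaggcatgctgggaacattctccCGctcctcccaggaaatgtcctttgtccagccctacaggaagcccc
ZNF467, chr7:149773589-149773688, minus strand: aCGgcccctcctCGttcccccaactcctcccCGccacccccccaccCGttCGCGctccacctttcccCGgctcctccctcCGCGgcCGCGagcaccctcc
ZNF518B, chr4:10457427-10457526, minus strand: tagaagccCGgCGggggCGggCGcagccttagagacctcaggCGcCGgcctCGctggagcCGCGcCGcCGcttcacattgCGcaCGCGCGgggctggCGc
ZNF219, chr14:21104723-21104822, minus strand: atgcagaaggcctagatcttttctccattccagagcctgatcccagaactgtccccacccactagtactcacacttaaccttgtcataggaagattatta
The stretch before ZNF518B held 16 CG dinucleotides, that before ZNF467 held 11, and that before ZNF219 held none. ZNF518B and ZNF467 were both lower with dTAG, as was ZNF219, so the printed stretches of genes that fell run from the richest to the poorest in CG.

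Motifs for 6 factors or elements were searched on both strands of the windows. The letters ACTACAATT, part of the motif of ZNF143, stood in 2.42% of the members' windows and in 0.471% of all windows. The NRF1 core CGCATGCG stood in 5.80% against 2.90%, and the cAMP response element TGACGTCA in 4.83% against 2.62%. In the members these 3 shares are 5, 12 and 10 windows. Between tested members and all tested genes they were 1.86% against 0.637%, 4.97% against 3.88% and 3.73% against 3.22%. The other 3 were the AP-1 site TGANTCA (3.38% against 5.67%), the YY1 core AAGATGGCG (2.90% against 2.78%) and the TATA box TATAAA (3.38% against 9.72%). Between tested members and all tested genes these were 3.73% against 4.38%, 3.11% against 3.94% and 3.73% against 5.61%. The differences in motif shares were not tested. Of the 10 windows of members that passed the threshold, that of ZNF330 held the cAMP response element, inside the stretch printed above, and that of ZNF436 held the TATA box.

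Gene counts per library were between 93105627 and 102314741, of which the 255 members took 1.03% to 1.05%. Of 8 epithelial markers, 7 passed the count minimum (EPCAM, 133 to 140 CPM, counts scaled to library size), CDX1 was nearly absent, the 5 blood markers stayed at or under 0.10 CPM, and of 6 fibroblast and endothelial markers only COL1A1 passed, at 4.65 to 5.43 CPM. One epithelial marker, ELF3, was lower with dTAG (−0.41, and 0.28 with libraries scaled to ERCC spike-in totals). TRIM28, which encodes KAP1, was lower with dTAG (log2 fold change −0.37 ± 0.09 SE, adjusted p = 0.019, edgeR quasi-likelihood test), although with the same ERCC scaling its sign turned (0.28). TRIM28 did not pass with GC and length trends removed (−0.10, adjusted p = 0.17) or with the ERCC factor as a covariate (−0.19, adjusted p = 0.13). The degron acts on the protein, so this RNA value does not measure depletion.

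Of the 255 members, 200 had at least 50 counts in all 4 libraries and were tested. With dTAG, 6 were higher at an adjusted p under 0.05 (edgeR quasi-likelihood test, Benjamini-Hochberg over 12612 genes), which is 3.00% of those tested beside 3.44% of all tested genes. Another 7 were lower, which is 3.50% beside 3.66%. Both shares were near those of all genes. The median log2 fold change of the 200 members was −0.01, as was that of all 12612 genes, and the 5th and 95th percentiles of members were −0.35 and 0.27. Within 1.5-fold of DMSO were 198 of 200. The largest rise was 0.43, short of that size, which 0.507% of all tested genes passed upwards as called genes. Called falls of that size were found for 2 members, 1.00% of the tested members against 1.13% of all genes. Both dTAG libraries lay above both DMSO libraries for 55 members (27.5%, against 28.1% of all genes) and below both for 57 (28.5%, against 30.7%).

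The 6 members that rose did so by similar amounts, with log2 fold changes from 0.34 to 0.43. ZNF217, a transcription factor of corepressor complexes and an oncogene in a region of chromosome 20 often amplified in carcinoma, had 252 and 245 CPM with DMSO and 346 and 322 with dTAG. The dTAG libraries were well above the DMSO libraries, which lay close together (log2 fold change 0.43 ± 0.09 SE, adjusted p = 0.0078, n = 2 per condition). ZNF133, which encodes a KRAB repressor, had 29.7 and 27.6 CPM with DMSO and 38.3 and 37.7 with dTAG (0.41 ± 0.10, adjusted p = 0.016). It was the only one of the 6 with a KRAB box by the profile search.

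ZNF804A, a gene known for its association with schizophrenia, had 103 and 76.7 CPM with DMSO and 117 and 120 with dTAG (0.40 ± 0.10, adjusted p = 0.026). Its DMSO libraries stood far apart, and the gap from DMSO replicate 1 to the lower dTAG library was smaller than the gap between the DMSO libraries. Its log2 fold change was 0.21 with GC and length trends removed. ZNF330, which encodes a nucleolar protein, had 26.6 and 22.97 CPM with DMSO and 32.8 and 32.2 with dTAG (0.39 ± 0.10, adjusted p = 0.029). ZNF697 had 28.6 and 26.5 against 33.98 and 35.9 CPM (0.34 ± 0.10, adjusted p = 0.043), and ZNF706 had 49.9 and 42.2 against 58.1 and 58.3 CPM (0.34 ± 0.09, adjusted p = 0.036). In all 6 genes the dTAG values lay closer together than, or about as close as, the DMSO values, except in ZNF217.

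The 7 members that fell spread more widely, from −0.30 to −0.91. ZNF467, whose product is known from the choice between fat and bone cells, fell most, from 106 and 140 counts (1.07 and 1.40 CPM) to 60 and 65 counts (0.60 and 0.72 CPM). With so few counts its standard error was the largest of the 13 (log2 fold change −0.91 ± 0.27, adjusted p = 0.048), and DESeq2 did not call it (adjusted p = 0.098). ZNF703 and ZNF503, paralogs of the NET family of transcriptional repressors, both fell. ZNF703, an oncogene of luminal breast cancer, had 2.52 and 3.28 CPM with DMSO and 1.80 and 1.40 with dTAG (−0.86 ± 0.23, adjusted p = 0.027). ZNF503 had 14.3 and 19.4 CPM with DMSO and 13.6 and 9.18 with dTAG (−0.57 ± 0.16, adjusted p = 0.041). The groups of ZNF503 came close to touching, since dTAG replicate 1 lay just under DMSO replicate 1.

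ZNF219, a partner of SOX9 in cartilage, had 16.3 and 21.3 CPM with DMSO and 14.5 and 11.9 with dTAG (−0.51 ± 0.14, adjusted p = 0.032). It overlaps ARHGEF40 and TMEM253 on the opposite strand, and the strand setting of the counting is not given in the sources used here. ZNF436, the only one of the 7 with a KRAB box, had 10.9 and 11.96 CPM with DMSO and 8.43 and 7.99 with dTAG (−0.48 ± 0.14, adjusted p = 0.040). ZNF385A, which encodes an RNA-binding partner of p53, had 39.6 and 42.6 against 33.0 and 28.8 CPM (−0.41 ± 0.10, adjusted p = 0.017). ZNF518B, whose product binds the H3K9 methyltransferase G9a, had 53.9 and 54.7 against 45.3 and 43.1 CPM (−0.30 ± 0.09, adjusted p = 0.047). When libraries were scaled to ERCC totals, the median of all genes moved to 0.63. No gene then passed the threshold (1 member at an unadjusted p under 0.05), and ZNF436, ZNF518B, ZNF503, ZNF385A and ZNF219 turned positive. These totals were small, at 0.0103% to 0.0265% of gene counts, and 14 ERCC RNAs reached the count minimum. They were 14798 and 25165 with DMSO and 13870 and 9551 with dTAG, so they differed widely between the DMSO libraries. Whether the turned signs come from the genes or from the spike-in totals was not tested.

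**Figure D1:**
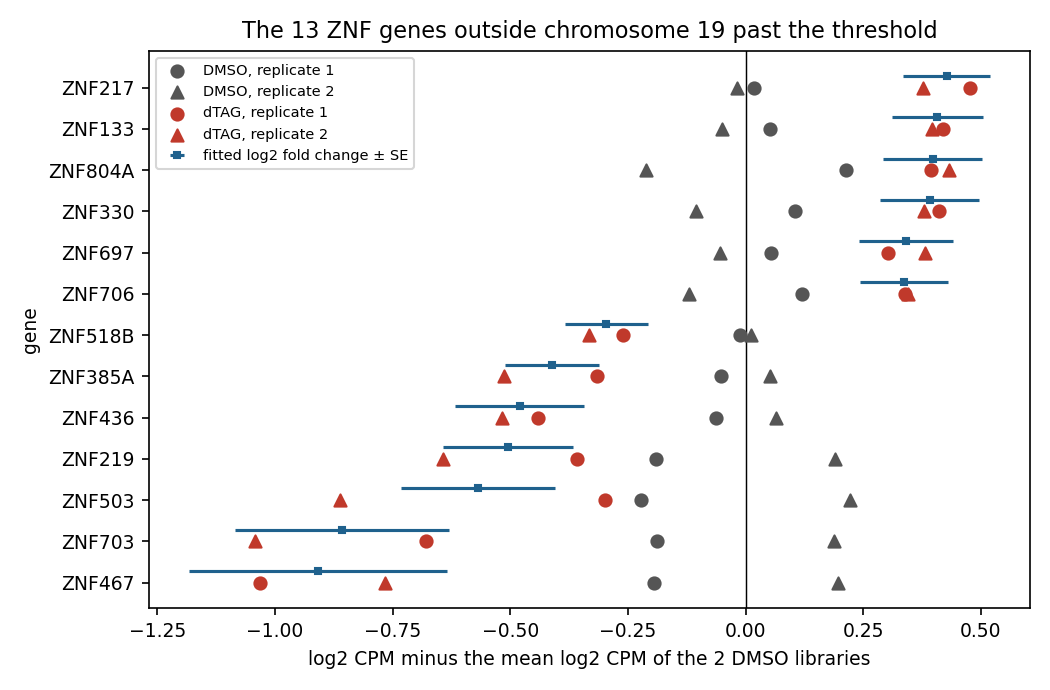
Values of the 13 members past the threshold in each library, as log2 CPM minus the mean log2 CPM of the 2 DMSO libraries (horizontal axis), 1 gene per row. Circles and triangles are replicates 1 and 2, grey for DMSO and red for dTAG, and blue squares with bars are fitted log2 fold changes ± SE, from −0.91 for ZNF467 to 0.43 for ZNF217.

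The calls rested on which libraries were included. Each fit without 1 library left 1 in that condition, so the spread between replicates came from the pair of the other condition. Numbers of calls in these fits depend on that pair as well as on the fold changes. Without DMSO replicate 1, 39 members were higher and 36 lower, and without DMSO replicate 2, 13 and 5. Without dTAG replicate 1, no member was higher (6 at an unadjusted p under 0.05) and 1 was lower, and without dTAG replicate 2 no member passed in either direction (5 higher and 3 lower at an unadjusted p under 0.05). Over all tested genes, 22.2% were higher and 21.4% lower without DMSO replicate 1, beside 19.5% and 18% of members, and without DMSO replicate 2 the shares were 6.41% and 5.47%, beside 6.5% and 2.5% of members. The fold changes of the 13 genes kept their sign in all 4 fits, but several moved by over 1.5 times. ZNF804A was at 0.63 without DMSO replicate 1 and 0.20 without DMSO replicate 2. ZNF706 was at 0.22 and ZNF219 at −0.30 (adjusted p = 0.081) without DMSO replicate 2. ZNF503 was at −0.33 (adjusted p = 0.069) without DMSO replicate 2, −0.32 without dTAG replicate 2 and −0.87 without dTAG replicate 1. ZNF217 stayed between 0.38 and 0.48.

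With the ERCC factor as a covariate, 4 of the 13 still passed, namely ZNF217 (0.43), ZNF133 (0.34), ZNF385A (−0.27) and ZNF518B (−0.26). Of those that did not, ZNF503 was at −0.06 (adjusted p = 0.85), ZNF219 at −0.12 (0.65), ZNF703 at −0.46 (0.36), ZNF467 at −0.66 (0.29) and ZNF436 at −0.36 (0.16). Among the genes that rose, ZNF804A was at 0.08 (0.52), ZNF706 at 0.16 (0.26), ZNF330 at 0.25 (0.12) and ZNF697 at 0.23 (0.14).

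Among members grouped by known function, the 21 chromatin and transcription cofactors included 20 tested genes, of which ZNF217 rose and ZNF518B fell. Their median was 0.07, and it was −0.01 with the ERCC factor as a covariate and 0.01 with GC and length trends removed. ZNF143, a promoter-binding activator, had 59.1 and 59.1 CPM with DMSO and 63.5 and 62.9 with dTAG (log2 fold change 0.10, adjusted p = 0.47). ZNF644, a partner of G9a and GLP, had 291 and 247 against 313 and 337 CPM (0.27, adjusted p = 0.089). ZNF592, ZNF687 and ZNF532, which encode related proteins bound to ZMYND8, had log2 fold changes of −0.07, −0.29 and 0.17, and none of the 3 passed. ZNF410, which switches on CHD4, was not tested, with 47 to 72 counts.

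The lineage and signaling factors, like the other role lists, were chosen with earlier results of these data known. Their share of calls is therefore no test. In this group 3 of 6 tested genes fell (ZNF703, ZNF503 and ZNF385A), beside 3.66% of all tested genes. The median was −0.37, and it became 0.28 under ERCC totals, beside 0.63 over all tested genes. With GC and length trends removed the median was −0.26, and 1 of the 6 was lower (ZNF385A). Both dTAG libraries lay below both DMSO libraries in 5 of the 6, beside 30.7% of all tested genes. ZNF423 and ZNF521, partners of EBF factors, were barely transcribed, with 241 to 280 and 51 to 73 counts over genes of 370397 and 290266 bases. The 3 genes of ribosomes and translation had a median of −0.20, which turned to 0.07 with GC and length trends removed. Under ERCC totals all tested genes had a median of 0.63 and the 3 genes one of 0.42. These were ZNF598, the ligase that senses collided ribosomes (−0.26 ± 0.11, adjusted p = 0.13), ZNF593 (−0.20 ± 0.14, adjusted p = 0.39) and ZNF622 (−0.13 ± 0.09, adjusted p = 0.35), both of large-subunit assembly. In all 3 both dTAG libraries lay below both DMSO libraries, and none passed the threshold in edgeR's test (1 of the 3, ZNF598, had an unadjusted p under 0.05), DESeq2 or the likelihood ratio test.

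The 6 genes of RNA, splicing and mitosis had a median of 0.13 (0.01 with the ERCC factor as a covariate or with GC and length trends removed), no call in edgeR's test, DESeq2 or the likelihood ratio test, and 1 gene at an unadjusted p under 0.05. ZNF207 (BuGZ), a spindle protein and splicing factor, had 250 and 236 CPM with DMSO and 254 and 277 with dTAG (0.13, adjusted p = 0.38). ZNF326, which links splicing to elongation, had 113 and 98.7 against 113 and 129 CPM (0.20, adjusted p = 0.18), so that its groups overlapped by a small margin. Of 12 named KRAB factors, 9 were tested, with a median of 0.13 (0.07 with GC and length trends removed). Both dTAG libraries lay above both DMSO libraries in 6, beside 28.1% of all tested genes. Over all 81 tested members with a KRAB box that share was 25.9%, and the median was −0.01. None of the 9 passed in edgeR's test, DESeq2 or the likelihood ratio test, and 3 had an unadjusted p under 0.05. ZNF445, which keeps genomic imprints, stood at 64.7 and 63.1 against 62.7 and 64.6 CPM (−0.01, adjusted p = 0.97). ZNF268 had the largest value of the 9 (0.39 ± 0.16, adjusted p = 0.13), from 6.13 and 5.01 to 7.17 and 7.46 CPM, with groups that did not overlap.

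Members with and without a KRAB box had nearly the same median. It was −0.01 over 81 tested members with the box, of which 1 rose and 1 fell (1.23% each). It was −0.02 over 118 without it, of which 5 rose and 6 fell (4.24% and 5.08%). Of all tested genes, 3.44% rose and 3.66% fell. The 17 tested members with a SCAN domain had a median of 0.01, with 1 at an unadjusted p under 0.05, no call in edgeR's quasi-likelihood test or in DESeq2, and 1 call in the likelihood ratio test. By number of finger patterns, the median was −0.08 for 36 members with 0 to 3, 0.02 for 81 with 4 to 9 and −0.01 for 83 with 10 or more. On chromosome 19, edgeR's quasi-likelihood test as first fitted called no ZNF gene lower (the likelihood ratio test called 3, on the long arm). With GC and length trends removed it called 2 lower and 6 higher on the short arm and 1 lower and 12 higher on the long arm. Of all tested genes, 7.46% were lower and 10.6% higher in that fit. As first fitted, medians of the chromosome 19 ZNF genes were 0.07 on the short arm (40 tested, 3 called higher, 7.5%) and 0.06 on the long arm (94 tested, 5 called higher, 5.32%). With upper-quartile normalization these medians were 0.00 and −0.01, that of the members was −0.08 and that of all tested genes −0.09. With GC and length trends removed the medians of the 2 arms were 0.05 and 0.06, and that of the members was 0.00. Genes named ZFP, ZSCAN, ZKSCAN or ZBTB outside chromosome 19 had a median of −0.03 over 62 tested. The differences between these groups were not tested.

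**Figure D2:**
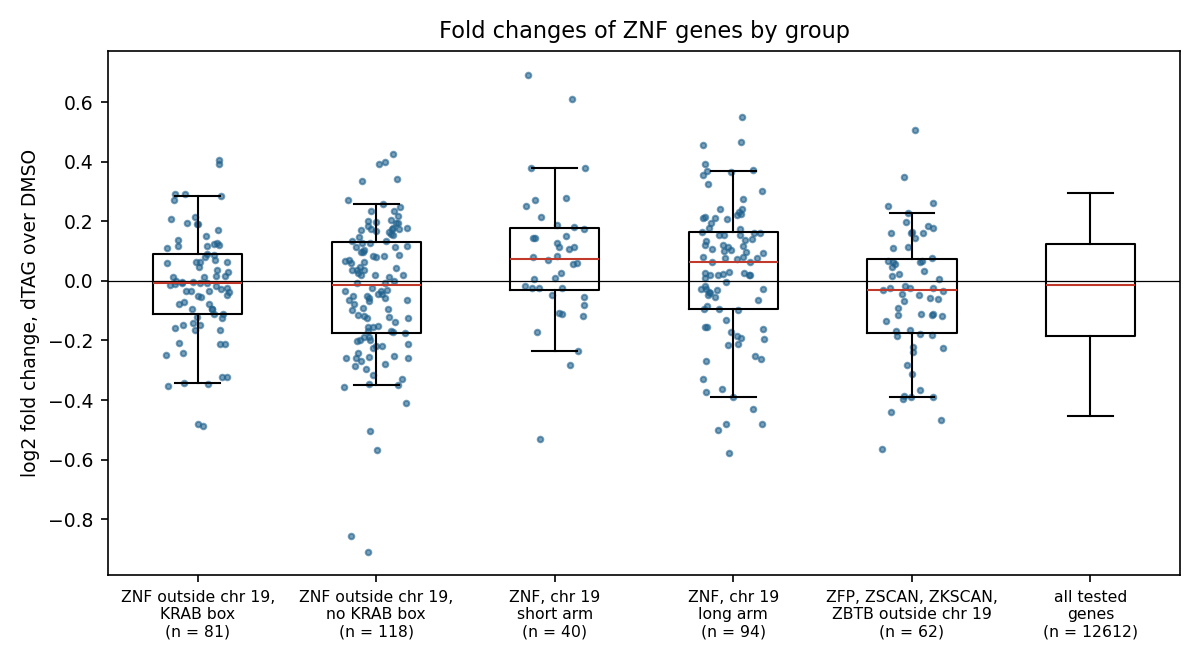
Log2 fold changes of dTAG over DMSO (vertical axis) for tested members with and without a KRAB box, for 3 other groups of zinc finger genes and for all tested genes. Points are genes, boxes span the quartiles with the median in red, and whiskers reach the 5th and 95th percentiles. The medians were −0.01 and −0.02 for members, 0.07 and 0.06 for chromosome 19.

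Fold changes of members were ordered by base composition. Across the 200 tested members, the Spearman correlation of the log2 fold change with the GC content of the gene was −0.51, and across all 12612 tested genes it was −0.56. These points share their 4 libraries, and genes are not independent replicates. Members were split into 3 equal parts by GC. In the part poorest in GC (41.5% or less) 4 rose (5.97%, beside 5.75% of all tested genes in that range of GC), and the median was 0.07, beside 0.11. In the richest part 5 fell (7.46%, beside 7.33% of all tested genes in its range), and the median was −0.15, beside −0.16. Replicates of 1 condition differed along GC as well. Over members, the log2 ratio between the DMSO libraries (replicate 2 over 1) had a correlation with GC of 0.75, and that between the dTAG libraries had −0.38.

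When each library's trend on GC content and then on gene length was removed, the correlation over members was 0.12 and the medians of the poorest and the richest parts were −0.02 and 0.03. The trends were fitted on the tested genes themselves, so the loss of the correlation was built into this fit and is no test. Any change with dTAG that follows GC or length was taken out as well. In this fit 15 members were higher and 17 lower (7.5% and 8.5%, beside 10.6% and 7.46% of all tested genes), of which 10 were among the 13 called before. ZNF467, ZNF703 and ZNF503, all rich in GC (59.5%, 65.9% and 61.2%), no longer passed, with log2 fold changes of −0.63, −0.50 and −0.27. ZNF217 (0.39), ZNF133 (0.32), ZNF436 (−0.42) and ZNF518B (−0.33) still did. Among members past the threshold in this fit but not among the 13, ZNF608, which encodes a large nuclear factor, had −0.39, beside −0.27 as first fitted, and ZNF692 had 0.32, beside 0.13. ZNF608 also passed in DESeq2 and the likelihood ratio test.

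**Figure D3:**
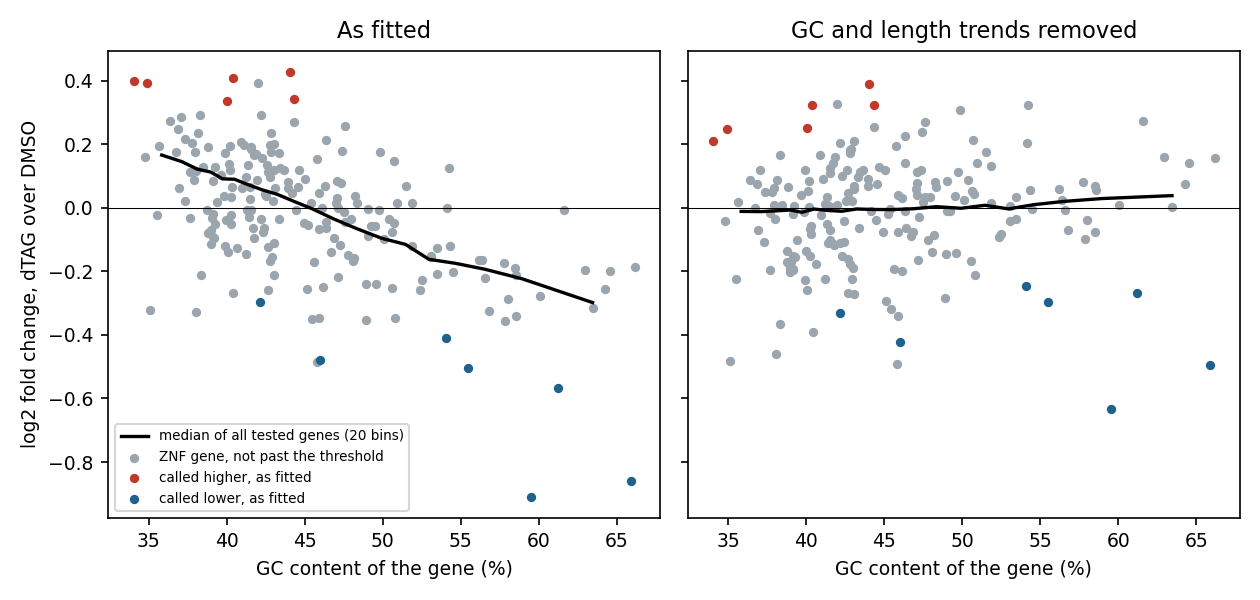
Log2 fold change of dTAG over DMSO (vertical axis) against GC content of the gene in percent (horizontal axis) for the 200 tested members, as fitted (left) and with GC and length trends removed (right). The black line is the median of all tested genes in 20 bins, red and blue points are members called higher and lower as fitted. The correlation over members was −0.51 on the left and 0.12 on the right, where the fit takes the trends out by design.

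Many members lie next to each other. With neighbors whose starts are within 500 kb joined, 10 groups held at least 5 members and 77 in all. The largest, on chromosome 16 (30378105 to 31917357), held 13, of which 10 were tested, with a median of −0.17 and no call in edgeR's test, DESeq2 or the likelihood ratio test (1 at an unadjusted p under 0.05). Of the 10, 8 had negative values, and the exceptions were ZNF267 (0.19) and ZNF843 (0.18). The group is rich in GC (median 53.8%), and with GC and length trends removed its median was 0.03. On chromosome 7 (63998873 to 65401135) 6 of 11 were tested. Their median was −0.06, and −0.16 with the trends removed, where ZNF107, ZNF680 and ZNF92 passed as lower, as did 7.46% of all tested genes. ZNF107, ZNF680 and ZNF92 did not pass as first fitted, in DESeq2 or in the likelihood ratio test (adjusted p from 0.36 to 0.71). The other chromosome 7 group (149069642 to 149867479) had all 10 members tested and a median of 0.02. As first fitted ZNF467 passed in it, and with the trends removed ZNF282 (0.13, adjusted p = 0.045) did and ZNF467 did not. In the chromosome 5 group (178694604 to 179083537), ZNF354A (0.21) and ZNF354B (0.27) were positive and ZNF454 was at −0.03. ZNF354A and ZNF354B passed with the trends removed (0.23 and 0.25) and not as first fitted, and ZNF354B also passed in DESeq2 and the likelihood ratio test.

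**Figure D4:**
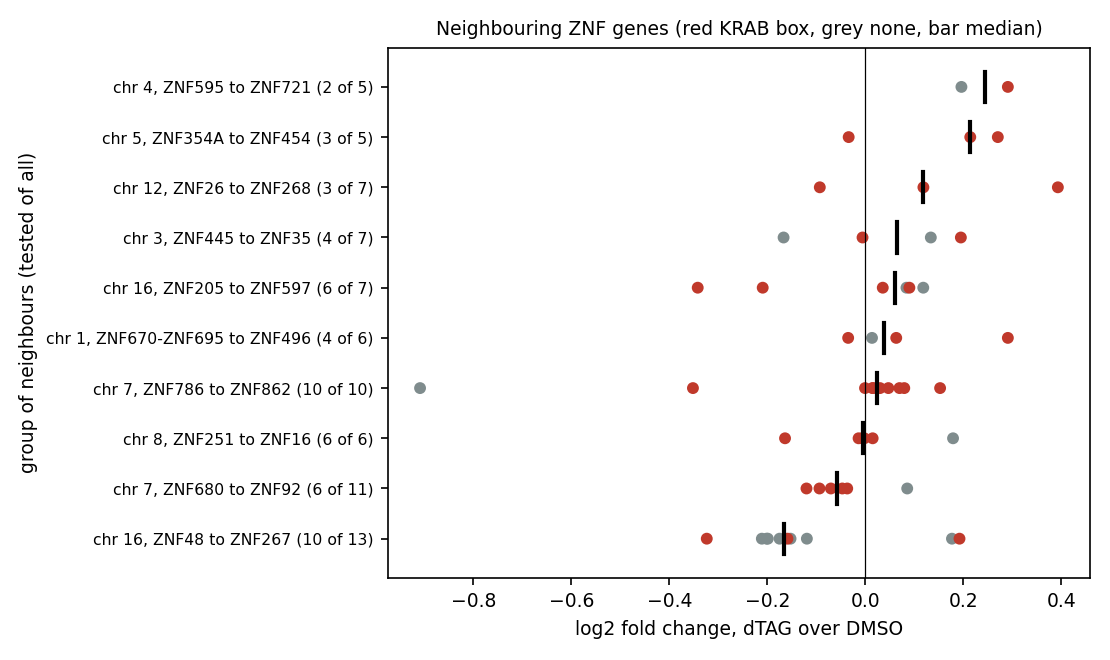
Log2 fold changes of dTAG over DMSO (horizontal axis) for tested members in the 10 groups of neighbors, 1 group per row ordered by median (black bar), red for a KRAB box and grey for none. Medians run from −0.17 on chromosome 16 to 0.24 for 2 genes on chromosome 4.

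The 55 members under the count minimum included 18 with no count in any library and 33 with a KRAB box. Of members covered over at least 95% of their length by other annotated genes on their own strand, 11 of 18 had no count in any library, as had 65.8% of the 979 such genes in the table. Of the 181 members that overlap no gene, 6 had none. ZNF10, from which the KRAB box used in CRISPR interference was taken, was at 0 in all 4 libraries and lies within such a gene, as do ZNF37A, ZNF605, ZNF23, ZNF670 and ZNF695. ZNF670 and ZNF695 are contained in the readthrough gene ZNF670-ZNF695, which was counted and tested. Members covered to the same extent only on the opposite strand were counted, and 7 of 8 were tested. How the counting treated reads shared by genes is not given in the sources used here, so a count of 0 at these loci is not a measure of transcription. ZNF300, ZNF501, ZNF727 and ZNF735, which no other gene of the count table covers on their strand, were also at 0. So were ZNF705B, ZNF705D and ZNF705G, of whose 50-base words 45.6% to 82.7% also occur in other genes.

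**Figure D5:**
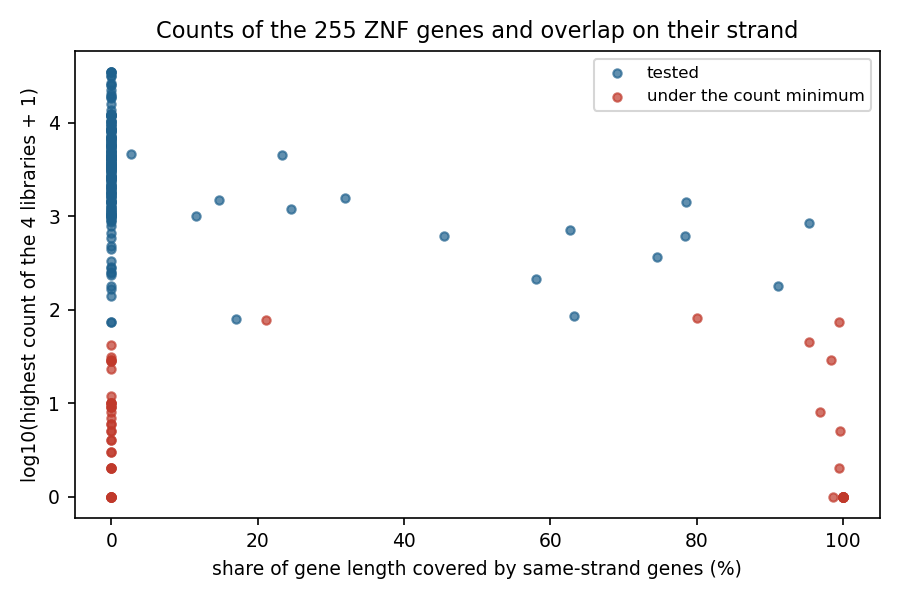
Highest count among the 4 libraries, as log10 of the count plus 1 (vertical axis), against the share of gene length covered by other genes on the same strand (horizontal axis) for the 255 members. Blue points were tested and red points were under the minimum of 50 counts, and 11 of the 18 members at 95% or more lie at 0.

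Per kilobase of gene, the median tested member stood at 1.19 CPM per kb with DMSO, beside 1.06 over all tested genes. ZNF593 was the highest at 10.7, 10.5, 10.4 and 8.15 CPM per kb in DMSO replicates 1 and 2 and dTAG replicates 1 and 2. It is a short gene of 1004 bases that ZNF593OS, itself a member by name, overlaps on the opposite strand. Of the 50-base words of ZNF593, 41.3% occur in other genes. After ZNF593 came ZNF207 at 7.86, 7.43, 8.00 and 8.71, and ZNF770 at 6.93, 5.98, 6.96 and 6.76. The values of ZNF207 and ZNF770 did not overlap over the 4 libraries, while those of ZNF593 and ZNF207 did. The lowest were ZNF385C (0.0079 to 0.0107), ZNF423 (0.0066 to 0.0076) and ZNF521 (0.0018 to 0.0025). Members without a KRAB box had a median of 1.41 CPM per kb and those with one 1.06.

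Of 20 genes of the KAP1 pathway, all tested, 3 were lower and none higher in edgeR's test (2 higher at an unadjusted p under 0.05, 1 by DESeq2), beside 3.66% lower and 3.44% higher of all tested genes. Besides TRIM28, these were MORC2, an ATPase of HUSH-dependent silencing (38.1 and 38.3 against 27.0 and 29.1 CPM, −0.45 ± 0.10, adjusted p = 0.0089), and ATF7IP, the nuclear partner of SETDB1 (242 and 204 against 165 and 189 CPM, −0.33 ± 0.10, adjusted p = 0.047). Under ERCC totals MORC2 and ATF7IP were at 0.21 and 0.29, beside a median of 0.63 over all tested genes. ATF7IP was at −0.20 without DMSO replicate 1 and −0.58 with the ERCC factor as a covariate, and it passed in both. SETDB1 itself had 61.1 and 62.7 CPM with DMSO and 63.8 and 63.8 with dTAG (0.04, adjusted p = 0.76). The median of the 20 was −0.06.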

How the data were processed

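Per the labels and the methods, the authors ran FastQC 0.11.8 and Trim Galore 0.6.4, aligned to hg38 by STAR 2.7.3a, and used featureCounts of Subread 1.6.3 across the full span of each protein-coding gene. The authors deposited unnormalized counts of 19901 genes beside 92 ERCC RNAs. A gene was tested where each of the 4 libraries had 50 counts or more (12612 genes), by the two-sided quasi-likelihood F test of edgeR 4.0.16 in R 4.3.3, with TMM factors and p-values adjusted by Benjamini-Hochberg across the table. For spike-in normalization the methods name RUVSeq and edgeR 3.40.1 but no number of factors, so ERCC settings were alternatives. CPM values use TMM library sizes, and each SE is from the edgeR fit with 2 libraries per condition. SEs were larger at low counts, with 0.29 for ZNF521 (51 to 73 counts) and 0.09 for ZNF217 (24466 to 34600 counts). KRAB and SCAN domains were found with pyhmmer 0.12.3 profiles built from GENCODE 44 proteins, in place of the planned RefSeq proteins, which were not used here. Overlaps and GC content were computed over whole genes at their positions in the count table, with bases from hg38. Overlaps take in only the genes of that table, so other annotated genes were not considered. DESeq2 1.42.0, a likelihood ratio test, other scalings and filters, trend removal by lowess (span 0.3), a replicate block and leaving out each library were alternatives, and the block with crossed numbers was added after seeing the data. The fits were tested on simulated data. Named genes were members past the threshold with groups that did not overlap, the 3 highest and 3 lowest per kilobase, members of role lists, and the KAP1 pathway list; ZNF608, ZNF692, ZNF282 and the genes named for their position or for a count of 0 were chosen after their values were seen. The members and lists were chosen with earlier results of these data known.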

Additional observations from a re-analysis of the deposited data

How the results depend on the processing

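The 2 libraries per condition limit every call, and p-values rest on these libraries alone. As reported, 6 members were higher and 7 lower, with a median log2 fold change of −0.01. Upper-quartile normalization gave 2 higher (1.0%, beside 2.02% of all tested genes) and a median of −0.082 (all genes −0.088). ERCC totals as library sizes gave 0 higher, 0 lower and a median of 0.63 (all genes 0.63), with 1 member at an unadjusted p under 0.05. Under ERCC totals the sign turned for ZNF436 (0.18), ZNF518B (0.35), ZNF503 (0.10), ZNF385A (0.23), ZNF219 (0.17), TRIM28 (0.28), ATF7IP (0.29) and MORC2 (0.21). The ERCC factor as a covariate gave 12 higher (6.0%, beside 6.32% of all tested genes) and a median of 0.0235. Only 4 of its 19 calls were among the 13 reported. The likelihood ratio test gave 10 higher (5.0%, beside 5.78% of all tested genes). Genes without overlap had a median of 0.0145. Removal of the length trend gave 11 higher, 4 lower (5.5% and 2.0%, beside 5.03% and 3.31% of all tested genes) and a median of 0.00668. Removal of the GC and length trends gave 15 higher and 17 lower (7.5% and 8.5%, beside 10.6% and 7.46%). Leaving out 1 library gave 0 to 39 higher and 0 to 36 lower, with the most calls without DMSO replicate 1 and the fewest without dTAG replicate 2. Each of these fits left 1 library in 1 condition, so the spread between replicates came from the pair of the other condition. The cause of the changes between settings was not tested. With DESeq2 and the other count filters the counts stayed within 1.5 times those reported.

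With the replicate number as a block, 1 member was higher and 2 were lower (0.50% and 1.00%, beside 1.28% and 1.41% of all tested genes). Same-numbered libraries deviated in opposite directions (correlation −0.25 over genes). Genes share their libraries, so this value cannot show whether the numbers pair the cultures. A block with crossed numbers gave 21 higher and 20 lower (10.5% and 10.0%, beside 12.6% and 12.7%). It was added after the data were seen, so its counts are no test of pairing.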
